A study of Mus musculus with 27 samples.

Results

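The genes described here carry carbon into the mitochondrial matrix and burn it. They are 41 genes of pyruvate entry, the tricarboxylic acid (TCA) cycle, the malate-aspartate shuttle and fatty acid β-oxidation, chosen by name from a table of 55401 mouse genes. In the matrix, pyruvate is imported and turned into acetyl-CoA by the pyruvate dehydrogenase complex, and long-chain fatty acids enter as carnitine esters and are shortened to acetyl-CoA by β-oxidation. The TCA cycle oxidises acetyl-CoA and passes electrons to the respiratory chain, and aspartate aminotransferases link the cycle to cytosolic NADH and to aspartate, a precursor of nucleotides. Tumour cells use the same enzymes both for ATP and to supply citrate, aspartate and other building blocks.

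The cells were 4T1, a metastatic mouse mammary carcinoma line, grown as 9 groups of 3 poly-A RNA-seq libraries (27 libraries). In the knockout arm, parental 4T1 cells with the wild-type genotype were set beside 6 mono-clonal CRISPR-Cas9 lines in which the gene of a mitochondrial fission factor was targeted: Drp1 knockout clones gs1B8 and gs2_B4, Fis1 knockout clones gs1_B11 and gs2_F6, and Mff knockout clones gs1_B4 and gs1_C8. Drp1 is the dynamin-like GTPase that constricts mitochondria, and Fis1 and Mff are outer membrane proteins that recruit it. In the drug arm, wild-type 4T1 cells were kept for 3 days in leflunomide or in its vehicle DMSO. Leflunomide gives rise to an inhibitor of dihydroorotate dehydrogenase, the mitochondrial enzyme of pyrimidine synthesis, and the labels used here give no dose. Each clone descends from 1 edited cell, so a difference between a clone and the parental population holds the edit together with whatever else sets that cell's descendants apart, and a genotype has 2 such lines. The labels do not say whether the 3 libraries of a group came from separate cultures, so p-values measure the spread between these libraries. In these bulk samples, fewer cells expressing a gene and less RNA per cell cannot be told apart.

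Library totals ran from 18492020 to 31295937 counts. One transcript, CT010467.1, took 23.2% of the counts of DMSO replicate 3 and 1.6% to 5.72% of the other 26 libraries. The fission genes checked the labels: relative to parental cells, Dnm1l (the gene of Drp1) changed by -1.68 and -2.42 on the log2 scale in the Drp1 clones, Fis1 by -1.17 and -1.47 in the Fis1 clones, and Mff by -0.88 and -1.01 in the Mff clones. The epithelial markers Epcam, Krt8, Krt18, Krt19 and Cdh1 were present in all 27 libraries, with summed levels of 1400 to 2720 CPM (counts scaled to a common library size), while the leukocyte markers Cd3e and Adgre1 were at 0 in all of them, and Ptprc, Cd79a and Lyz2 reached at most 0.202, 0.118 and 0.0792 CPM in any library. The epithelial sum was 2100 to 2170 CPM in parental cells, lowest among the clones in gs1B8 (1790 to 1920) and highest in gs1_B11 (2460 to 2720). The 5 fibroblast markers, led by Pdgfra and with Lum at 0 throughout, summed to 4.21 to 4.35 CPM in parental cells, 2.24 to 3.11 in gs2_F6 and 6.42 to 8.08 in gs1_C8. The part of these marker differences in the results was not tested. The 5 endothelial and the 5 adipocyte and muscle markers each summed to at most 0.462 CPM.

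Of the 41 genes, 40 were abundant enough to be tested in both arms. The exception was Pdk2, a kinase that switches pyruvate dehydrogenase off, at 0.0474 to 0.369 CPM in every library. Levels below are CPM scaled over all 27 libraries, and a gene is called where its edgeR quasi-likelihood test gave an adjusted p below 0.05. Per kilobase of exon, the most abundant of the 41 in parental cells were Mdh2 (79.2 CPM per kb), Glud1 (78.7), Pdha1 (75.4), Cs (75.2) and Got2 (70.7). At the other end of the same per-kilobase scale were Cpt1a (2.36), Pcx (0.681) and Pdk2 (0.0407). Summed over the 41 genes, expression came to 4547 to 4638 CPM in parental cells and was lowest in Mff clone gs1_B4, at 3977 to 4116 CPM.

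Of the 40 genes, 38 changed in at least 1 clone, beside 83.6% of all genes tested, and 3 did so in the same direction in all 6. In Drp1 clone gs1B8, 3 genes were higher and 11 lower than in parental cells, while among all 13940 genes tested 12.1% were higher and 17.4% lower. In Drp1 clone gs2_B4 the numbers were 8 higher and 17 lower, beside 24.1% and 26.3% of all genes. Fis1 clone gs1_B11 had 13 higher and 13 lower, beside 21.4% and 25.9%, and Fis1 clone gs2_F6 had 8 higher and 5 lower, beside 13.1% and 18.2%. In Mff clone gs1_B4, 7 genes were higher and 23 lower, beside 20.9% and 26.8%, and in Mff clone gs1_C8, 16 were higher and 10 lower, beside 21.5% and 25.2%. The members' median log2 fold change was -0.15 in gs1_B4, where the median of all genes was -0.022, and 0.08 in gs1_C8, where it was -0.023. In the other 4 clones the members' median lay between -0.07 and 0.02, beside -0.012 to 0.003 for all genes. All 6 comparisons use the same 3 parental libraries.

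Genes that both clones of a genotype called in the same direction were fewer. In both Drp1 clones, 3 of 40 were higher (Dlat, Sucla2 and Acadvl) and 8 lower (Mpc2, Pdha1, Cs, Idh3g, Got1, Got2, Cpt1a and Hadhb), beside 7.94% and 12.1% of all genes. In both Fis1 clones, 4 were higher (Pdhb, Sucla2, Glud1 and Eci1) and 3 lower (Pdha1, Got1 and Got2), beside 5.94% and 9.02%. In both Mff clones, 4 were higher (Pdhx, Idh3b, Acadl and Etfb) and 9 lower (Pdha1, Cs, Idh3a, Idh3g, Dlst, Got1, Got2, Acadm and Hadh), beside 7.37% and 11.3%. None was higher in all 6 clones, where 0.538% of all genes were, and 3 of 40 were lower in all 6 (Pdha1, Got1 and Got2), beside 2.1% of all genes. Across the 6 clones, 2 genes were never called (Mdh1 and Cpt2), 22 were called in 1 direction only (54.5% of all genes), and 16 were called higher in some clones and lower in others (29.2% of all genes).

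**Figure D1:**
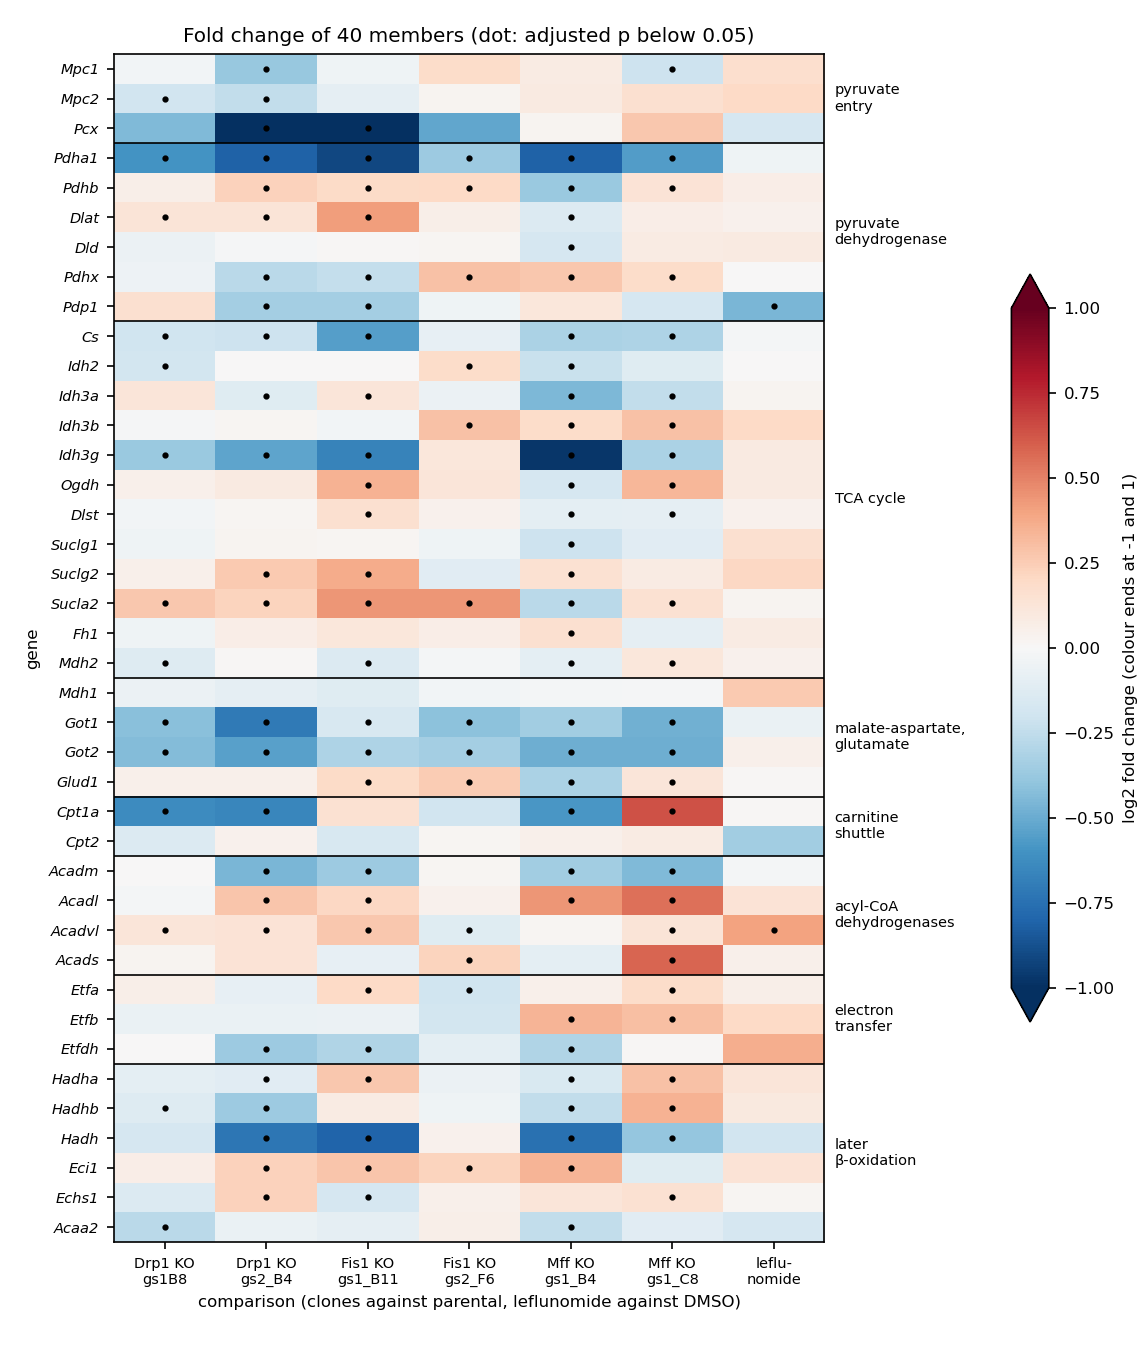
Log2 fold change of the 40 tested genes (rows, grouped by role) in the 6 clones against parental cells and in leflunomide against DMSO (columns); blue is lower, red is higher, and a dot marks an adjusted p below 0.05. Pdha1, Got1 and Got2 are blue and dotted in all 6 clone columns, many other rows change colour between clones, and the leflunomide column has 2 dots, on Pdp1 and Acadvl.

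These differences moved with the genes' place in the genome. In the clones, genes of 1 chromosome were shifted together: leaving the members out, the median log2 fold change of chromosome 8 was between -0.57 and -0.24 in all 6 clones, that of chromosome X was -0.73, -0.72 and -0.5 in gs1_B11, gs1_B4 and gs2_B4, and that of chromosome 19 was -0.58 in gs2_B4. Chromosome 14 was at 0.15 to 0.26 in 5 clones and at -0.22 in gs1_B4, and chromosome 5 was at 0.24 in gs1_C8. With leflunomide none of the chromosome medians taken left the range from -0.03 to 0.03. Chromosome 18, which holds Acaa2, was left out of these medians. Each member was therefore set beside its neighbours, the other tested genes within 10 Mb on either side, or on the whole chromosome where fewer than 20 lay so close. Across the 40 members, the Pearson r between the member's log2 fold change and its neighbours' median was 0.833 in gs1B8, 0.737 in gs2_B4, 0.644 in gs1_B11, 0.597 in gs2_F6, 0.734 in gs1_B4 and 0.437 in gs1_C8. In leflunomide the same r was 0.0366. Genes on 1 chromosome share neighbours, and across all tested genes r was lower, from 0.122 to 0.233 in the clones. All tested genes include genes with low counts, and r was not computed over genes of similar abundance. This difference in r therefore does not set the members apart. Of the members called in a clone, 11 of 14 (gs1B8), 19 of 25 (gs2_B4), 22 of 26 (gs1_B11), 10 of 13 (gs2_F6), 22 of 30 (gs1_B4) and 20 of 26 (gs1_C8) had the sign of their neighbours' median. The matching share over all called genes was not computed, so these counts do not set the members apart from other genes.

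**Figure D2:**
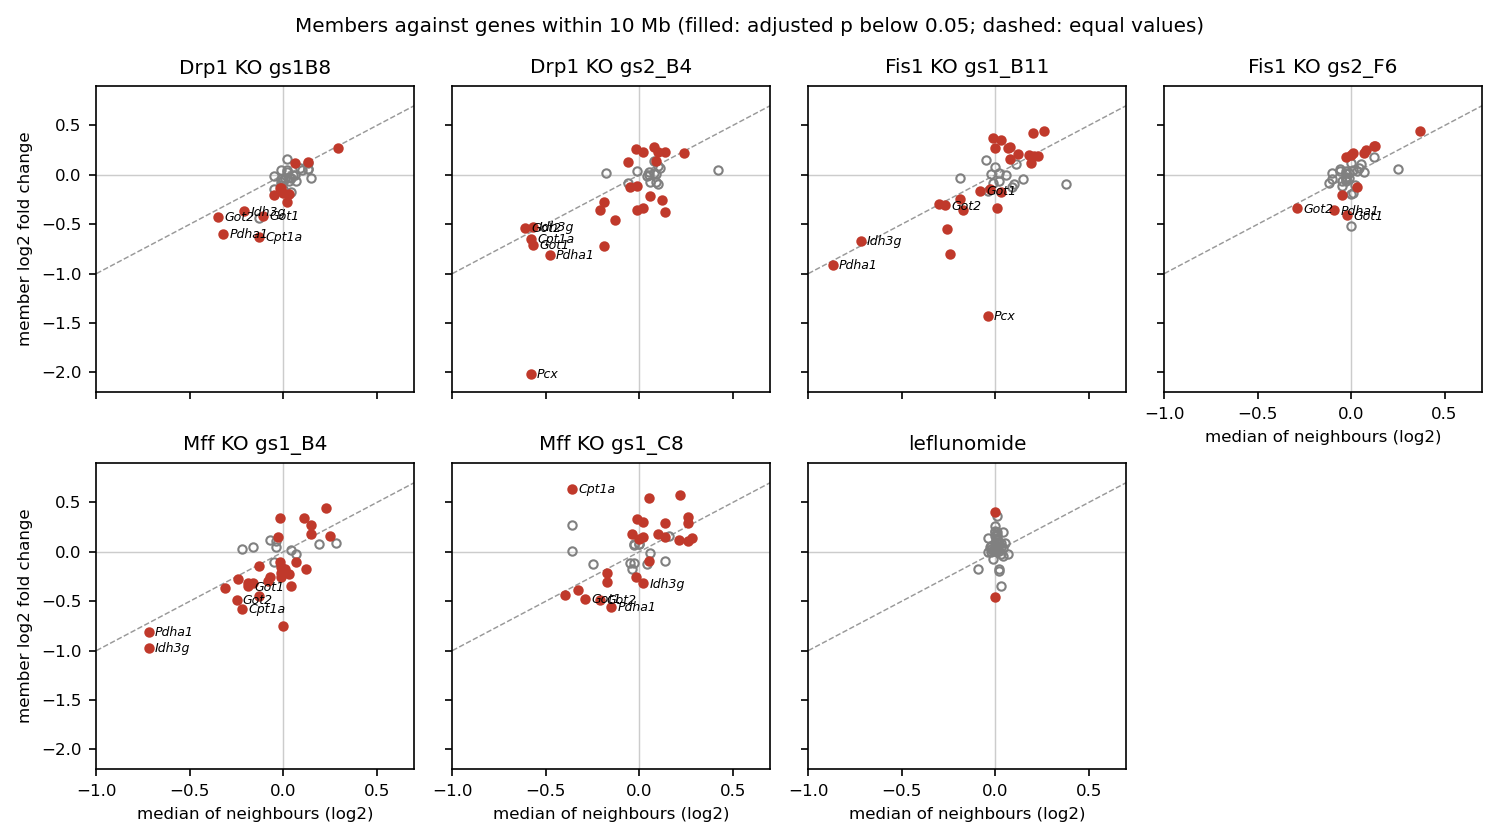
Each point is 1 of the 40 tested genes, with its own log2 fold change on the vertical axis and the median log2 fold change of the genes within 10 Mb on the horizontal axis, 1 panel per comparison; filled red points have an adjusted p below 0.05 and the dashed line marks equal values. In the clone panels the points spread along both axes, with Pdha1 and Idh3g near the dashed line in gs1_B11, while in the leflunomide panel the neighbours' medians stay between -0.09 and 0.07.

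When each library was rescaled gene by gene to its neighbours, an alternative added after the shifts were seen, fewer members were called. In both Drp1 clones 4 stayed lower than their neighbourhood (Mpc2, Pdha1, Cs and Got1) and none higher, beside 7.24% and 6.46% of all genes. Both Fis1 clones then shared 2 higher (Dlat and Idh3b) and none lower, beside 4.05% and 5.51%. Both Mff clones shared 3 higher (Acadl, Etfa and Etfb) and 7 lower (Cs, Idh3a, Idh3g, Dlst, Got1, Got2 and Glud1), beside 6.58% and 7.33%. No member was then called in all 6 clones in either direction, beside 0.438% higher and 0.495% lower. The part of the chromosome shifts in the other results was not tested, and DNA was not analysed here. Values relative to neighbours are given below beside the members that both clones of a genotype called and that lost the call.

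Pyruvate enters the matrix through the Mpc1-Mpc2 carrier, and Pcx (pyruvate carboxylase) feeds it to the cycle as oxaloacetate. Mpc2 fell slightly in both Drp1 clones. It was at 37.7, 37.7 and 40.9 CPM in parental cells, at 33.4, 35.3 and 34 in gs1B8 and at 32.8, 33 and 33.1 in gs2_B4, without overlap. The log2 fold changes were -0.19 ± 0.07 (SE; adjusted p = 0.048) and -0.25 ± 0.07 (adjusted p = 0.0059), and the first of these missed the threshold in edgeR with DESeq2 size factors (adjusted p = 0.065), in DESeq2 (0.075) and when any 1 parental or gs1B8 library was left out (0.063 to 0.17). Its partner Mpc1 fell in gs2_B4 (log2 -0.38) and gs1_C8 (-0.21), with log2 values of -0.04 to 0.18 in the other clones. A pseudogene, Mpc1-ps, had 6.37 CPM on average beside 40 for Mpc1, and reads could be split between them. Pcx fell the most of all 40 genes: from 3.27, 3.27 and 3.17 CPM in parental cells to 0.782, 0.703 and 0.922 in gs2_B4 and 1.46, 1.44 and 0.64 in gs1_B11. Relative to parental cells that is 24.7% (log2 -2.02 ± 0.24, adjusted p = 8.6e-07) and 37% (-1.43 ± 0.23, adjusted p = 4.3e-05). The 2 clones belong to different genotypes, and the other clone of each, gs1B8 and gs2_F6, stood at -0.44 (adjusted p = 0.14) and -0.52 (adjusted p = 0.079). Relative to its neighbours on chromosome 19, Pcx was still lower, at log2 values of -1.44 in gs2_B4 and -1.39 in gs1_B11.

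The pyruvate dehydrogenase complex joins 3 enzymes: E1, made of Pdha1 and Pdhb, E2 (Dlat) and E3 (Dld), with Pdhx holding E3 to the core. Pdha1, the X-linked E1α subunit that carries the sites through which the complex is switched off, was lower in all 6 clones. Parental libraries held 277, 284 and 283 CPM. The Drp1 clones held 188, 189 and 184 CPM (gs1B8) and 159, 163 and 163 CPM (gs2_B4), and the Fis1 clones 149, 148 and 151 CPM (gs1_B11) and 225, 225 and 215 CPM (gs2_F6). The Mff clones held 163, 170 and 157 CPM (gs1_B4) and 195, 186 and 198 CPM (gs1_C8). No clone library reached the lowest parental one, and gs2_F6 was the least and gs1_B11 the most reduced. The log2 fold changes ran from -0.36 ± 0.03 in gs2_F6 (adjusted p = 1.2e-07) to -0.91 ± 0.03 in gs1_B11 (adjusted p = 1.5e-13), that is, 78% and 53.2% of the parental level. Neighbouring genes on chromosome X were low as well, with medians of -0.87 in gs1_B11, -0.72 in gs1_B4, -0.48 in gs2_B4, -0.32 in gs1B8, -0.15 in gs1_C8 and -0.09 in gs2_F6. Relative to them, Pdha1 remained lower in 4 clones, by log2 values of -0.28 (gs1B8), -0.34 (gs2_B4), -0.27 (gs2_F6) and -0.41 (gs1_C8), while in gs1_B11 (-0.05, adjusted p = 0.46) and gs1_B4 (-0.1, adjusted p = 0.11) it was not told from them. DMSO and leflunomide libraries held 274 to 291 and 263 to 289 CPM, close to the parental range.

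**Figure D3:**
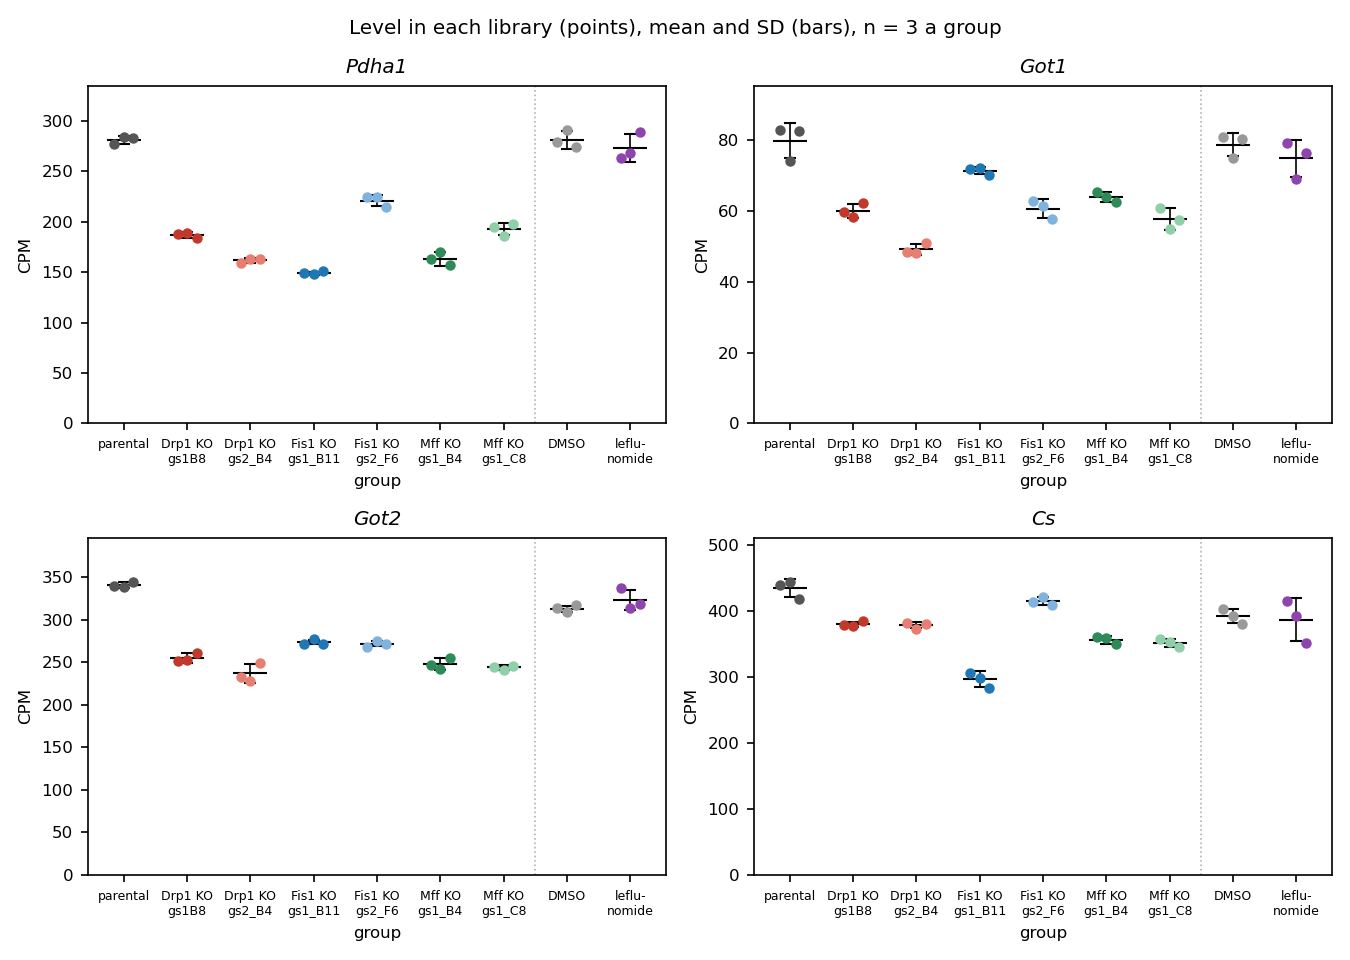
Level of Pdha1, Got1, Got2 and Cs in CPM (vertical axes, from 0) in each of the 27 libraries (points) by group, with the mean and SD of 3 libraries as bars; a dotted line parts the knockout arm from the drug arm. For Pdha1, Got1 and Got2 every clone point lies under the parental points of its panel, and for Cs those of gs2_F6 overlap them.

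The promoter of Pdha1 is printed because the gene was lower in every clone; it comes from RefSeq and covers chrX:160138431-160138680 on the minus strand of GRCm38.p6, the 250 bases before the RefSeq start. Capitals in this and the other promoters below mark any match to 6 short motifs searched on both strands: AAGGTCA (an extended nuclear receptor element), GGGCGG (GC box), GCGCATGCG (NRF1 core), TGACGTCA (cyclic AMP response element), CCGGAAGT (ETS site) and CACGTG (E-box). None of these letter strings is in the Pdha1 stretch.
Pdha1: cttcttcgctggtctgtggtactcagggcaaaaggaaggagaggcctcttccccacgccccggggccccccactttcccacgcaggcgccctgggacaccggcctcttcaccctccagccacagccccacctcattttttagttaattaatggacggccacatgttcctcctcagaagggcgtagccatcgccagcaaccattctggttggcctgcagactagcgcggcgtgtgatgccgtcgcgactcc

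Pdhb, the E1β subunit on chromosome 14, did not follow its partner. It was at 105, 106 and 116 CPM in parental cells, rose in 4 clones (log2 0.14 to 0.23) and fell in gs1_B4, to 90.9, 87 and 80.6 CPM (log2 -0.37 ± 0.05, adjusted p = 3.4e-06). In gs1B8 its log2 value was 0.06 (adjusted p = 0.39). Both Fis1 clones had it higher, at 119, 125 and 127 CPM in gs1_B11 and 129, 127 and 121 CPM in gs2_F6, all above the parental libraries. The ratio of Pdha1 to Pdhb counts within a library was 2.44 to 2.69 in parental cells, 2.39 to 2.59 in DMSO and 2.19 to 2.36 in leflunomide, all 3 below DMSO. In the clones it was 1.61 to 1.67 (gs1B8), 1.24 to 1.28 (gs2_B4), 1.19 to 1.25 (gs1_B11), 1.74 to 1.78 (gs2_F6), 1.8 to 1.95 (gs1_B4) and 1.54 to 1.67 (gs1_C8). The E1 subunits were thus in a lower ratio in all 18 clone libraries than in any parental library, also in gs1_B4, where both fell. Neighbours of Pdhb had medians of 0.13, 0.14, 0.23, 0, -0.31 and 0.28 in gs1B8, gs2_B4, gs1_B11, gs2_F6, gs1_B4 and gs1_C8. Relative to them, Pdhb was higher in gs2_F6 (0.2, adjusted p = 0.0087) and not called in gs1_B11 (-0.05, adjusted p = 0.5).

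**Figure D4:**
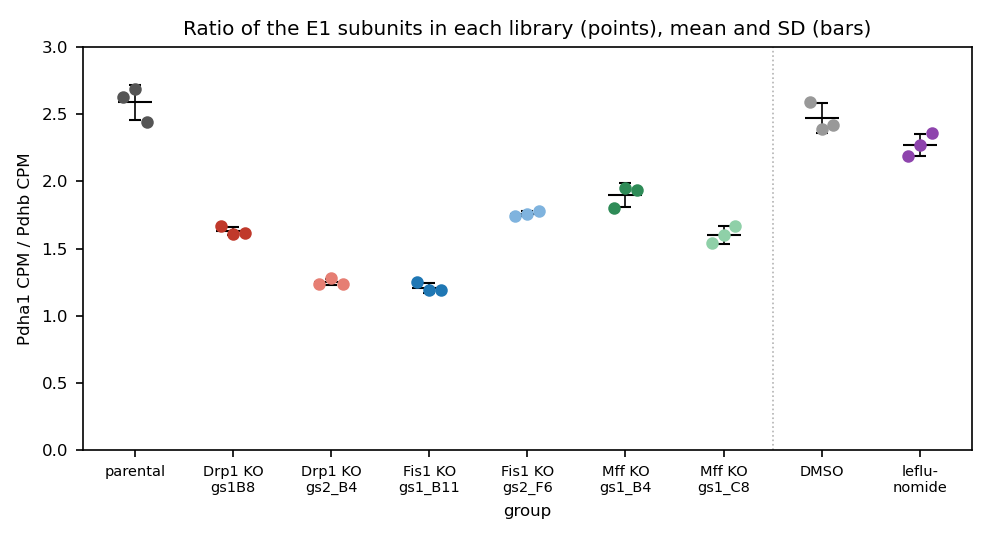
Ratio of Pdha1 to Pdhb CPM (vertical axis, from 0) in each library (points) of the 9 groups, with mean and SD of 3 libraries as bars. All clone libraries lie between 1.19 and 1.95, below the parental range of 2.44 to 2.69.

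Among the other parts of the complex, Dlat rose in both Drp1 clones by little, from 103, 110 and 109 CPM in parental cells to 118, 122 and 115 CPM in gs1B8 and 116, 118 and 123 CPM in gs2_B4. Its log2 fold change was 0.13 in both (adjusted p = 0.016 and 0.0065), and the gs1B8 call was lost without parental replicate 1 (adjusted p = 0.062) or gs1B8 replicate 2 (0.085), with no low-count filter (0.097), and relative to its neighbours (-0.01, adjusted p = 0.92). In Fis1 clone gs1_B11 the log2 value was 0.42, the largest rise among the parts of the complex. In Mff clone gs1_B4 Dlat was called lower (100, 98.2 and 101 CPM), a call that was lost relative to neighbours. Pdhx rose in both Mff clones, from 40.1, 37.4 and 40.8 CPM to 51.1, 48.3 and 46.2 CPM in gs1_B4 and 47.1, 44.5 and 43 CPM in gs1_C8, where log2 values were 0.27 ± 0.05 and 0.18 ± 0.05 (adjusted p = 0.00027 and 0.01). It also rose in gs2_F6 (0.29) and fell in gs2_B4 (-0.27) and gs1_B11 (-0.24), and its neighbours on chromosome 2 had the same sign in these 5 clones, at 0.15, 0.1, 0.13, -0.19 and -0.19. Relative to them Pdhx was called in none of these clones, with 0.12 and 0.08 in the Mff clones (adjusted p = 0.12 and 0.3). Dld, which serves several dehydrogenase complexes, fell in gs1_B4 alone (log2 -0.17, adjusted p = 0.0025), and the test of the 2 Mff clones against each other put gs1_C8 0.25 above gs1_B4 (adjusted p = 4.9e-05). Pdp1, the phosphatase that switches the complex on, fell in gs2_B4 and gs1_B11 (log2 -0.34 in each, adjusted p = 0.019 and 0.024).

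Citrate synthase (Cs) joins acetyl-CoA to oxaloacetate and opens the cycle, and it was lower in 5 clones. Parental libraries held 440, 445 and 419 CPM. The Drp1 clones held 379, 377 and 385 CPM (gs1B8) and 382, 373 and 381 CPM (gs2_B4), and the Mff clones 361, 359 and 350 CPM (gs1_B4) and 358, 353 and 345 CPM (gs1_C8). The lowest were 307, 299 and 284 CPM in Fis1 clone gs1_B11, 68.4% of the parental level (log2 -0.55 ± 0.03, adjusted p = 1.9e-10). In the other 4 called clones the log2 fold change was -0.2 to -0.32. The second Fis1 clone, gs2_F6, overlapped the parental range at 414, 422 and 409 CPM (log2 -0.08, adjusted p = 0.099), and the 2 Fis1 clones differed by 0.47 (adjusted p = 1.2e-09). Cs stayed lower than its neighbours on chromosome 10 in all 5 clones, by log2 values of -0.12 to -0.29.

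NAD-linked isocitrate dehydrogenase has a catalytic α subunit (Idh3a) and β and γ subunits (Idh3b and Idh3g), and the 3 genes moved differently. Idh3g, on chromosome X, was at 69.7, 68.4 and 68.2 CPM in parental cells. It fell to 53.2, 54.6 and 53.2 CPM in gs1B8, to 50.6, 47.2 and 46.4 CPM in gs2_B4 and to 45.3, 42.8 and 41 CPM in gs1_B11. In the Mff clones it was at 37.7, 36.1 and 33.8 CPM (gs1_B4) and 56.9, 55.2 and 54.4 CPM (gs1_C8). The value in gs1_B4, 51.2% of parental (log2 -0.97 ± 0.06, adjusted p = 3.1e-11), was the largest fall of the cycle's own enzymes, and gs2_F6 overlapped the parental range (78.8, 78 and 67.7 CPM). Set against its neighbours, Idh3g was not called in gs1B8 (-0.16, adjusted p = 0.059), gs2_B4 (0.04, adjusted p = 0.6) or gs1_B11 (0.05, adjusted p = 0.51) and remained lower in gs1_B4 (-0.25) and gs1_C8 (-0.34). Idh3a fell in both Mff clones, from 223, 232 and 247 CPM to 172, 183 and 168 CPM in gs1_B4 (log2 -0.45 ± 0.05, adjusted p = 1.6e-07) and 201, 191 and 204 CPM in gs1_C8 (-0.25 ± 0.05, adjusted p = 0.00022), and these stayed called relative to its neighbours (-0.32 and -0.22). Idh3a was also called lower in gs2_B4 and higher in gs1_B11. Idh3b had 118, 114 and 106 CPM in gs1_B4 and 129, 113 and 118 CPM in gs1_C8, against 92.3, 94.4 and 105 CPM in parental cells (log2 0.18 and 0.29, adjusted p = 0.01 and 2e-04). It was also called higher in Fis1 clone gs2_F6 (122, 123 and 115 CPM). Idh3b lies antisense to Nop56, a gene with 16600 counts per library on average against 2540 for Idh3b, and the sources used here do not state whether strand was used in counting, so its values are uncertain. The gs1_B4 call was lost without gs1_B4 replicate 1 (adjusted p = 0.054), relative to its neighbours (0.03, adjusted p = 0.68) and relative to the whole chromosome (0.08, adjusted p = 0.28). Mitochondrial NADP-linked Idh2 was called lower in gs1B8 (-0.18) and gs1_B4 (-0.22) and higher in gs2_F6 (0.18, adjusted p = 0.049).

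The 2-oxoglutarate dehydrogenase complex and succinyl-CoA ligase carry the cycle to succinate. Ogdh, the first subunit of the complex, rose in gs1_B11 (log2 0.35) and gs1_C8 (0.33) and fell in gs1_B4 (-0.17), with neighbours on chromosome 11 at medians of 0.03, -0.01 and 0.01. Dlst, its second subunit, was lower in both Mff clones by a small step, from 234, 241 and 233 CPM to 223, 224 and 229 CPM in gs1_B4 and 223, 221 and 229 CPM in gs1_C8 (log2 -0.1 and -0.09, adjusted p = 0.015 and 0.03), and higher in gs1_B11 (0.16). The Dlst call in both Mff clones ended in 8 alternatives. Among them were edgeR with DESeq2 size factors and leaving out parental replicate 1 or 2 or any 1 gs1_C8 library (adjusted p in gs1_C8 of 0.065 to 0.24). The others were no low-count filter (0.43 in gs1_B4 and 0.44 in gs1_C8) and a fit of clone and parental alone (0.27 and 0.2). Sucla2, the ADP-forming β subunit of succinyl-CoA ligase, was the only 1 of the 40 called in all 6 clones with differing signs. From 111, 110 and 119 CPM in parental cells it rose to 139, 141 and 134 CPM in gs1B8, 132, 138 and 132 CPM in gs2_B4, 150, 154 and 158 CPM in gs1_B11 and 158, 153 and 155 CPM in gs2_F6. The Mff clones went apart, with 95.1, 101 and 91.6 CPM in gs1_B4 (log2 -0.27 ± 0.04, adjusted p = 3.1e-05) and 131, 121 and 129 CPM in gs1_C8 (0.15 ± 0.04, adjusted p = 0.0073). Its neighbours on chromosome 14 had medians of 0.29, 0.24, 0.26, 0.37, -0.24 and 0.14 in the clones in the order gs1B8, gs2_B4, gs1_B11, gs2_F6, gs1_B4 and gs1_C8, and relative to them Sucla2 was called in gs1_B11 alone (0.18, adjusted p = 0.0075). The GDP-forming β subunit Suclg2 rose in gs2_B4 (0.26), gs1_B11 (0.37) and gs1_B4 (0.15) and stayed called against neighbours whose medians were -0.02, -0.01 and -0.03. The shared α subunit Suclg1 was called in gs1_B4 alone (-0.21).

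The last steps of the cycle moved little. Fumarase (Fh1) was called in gs1_B4 alone (log2 0.16, adjusted p = 0.015), with neighbours at 0.25. Mitochondrial malate dehydrogenase (Mdh2) was 0.1 to 0.14 lower in gs1B8, gs1_B11 and gs1_B4 (log2 values -0.13, -0.14 and -0.1) and higher in gs1_C8 (0.11), where its neighbours on chromosome 5 stood at 0.26. Cytosolic malate dehydrogenase (Mdh1) was called in none of the clones, with log2 values from -0.12 to -0.01.

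The aspartate aminotransferases of the malate-aspartate shuttle, Got1 in the cytosol and Got2 in the matrix, were the pair that fell in every clone. Got2 was at 340, 338 and 345 CPM in parental cells. It was at 251, 253 and 261 CPM in gs1B8, at 233, 228 and 249 CPM in gs2_B4 and at 272, 277 and 272 CPM in gs1_B11. It was at 268, 275 and 272 CPM in gs2_F6, at 247, 242 and 255 CPM in gs1_B4 and at 245, 241 and 246 CPM in gs1_C8. All 18 clone libraries were below all parental ones, and log2 fold changes ran from -0.31 ± 0.03 (gs1_B11, adjusted p = 4.3e-07) to -0.54 ± 0.04 (gs2_B4, adjusted p = 1.4e-10). Its neighbours on chromosome 8 were lower in all 6 clones as well, at medians from -0.21 to -0.61, and relative to them Got2 was called in both Mff clones (-0.24 and -0.28) but had values of -0.08, 0.07, -0.04 and -0.05 in gs1B8, gs2_B4, gs1_B11 and gs2_F6 (adjusted p = 0.2 to 0.44).

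Got1 was at 82.9, 74.1 and 82.6 CPM in parental cells. It was at 59.8, 58.2 and 62.2 CPM in gs1B8, at 48.4, 48.3 and 50.9 CPM in gs2_B4 and at 71.9, 72.1 and 70.2 CPM in gs1_B11. It was at 62.9, 61.4 and 57.7 CPM in gs2_F6, at 65.4, 64.1 and 62.7 CPM in gs1_B4 and at 61, 54.8 and 57.6 CPM in gs1_C8. The groups did not overlap, although gs1_B11 came close. Log2 fold changes ran from -0.16 ± 0.05 in gs1_B11 (adjusted p = 0.01) to -0.71 ± 0.05 in gs2_B4 (adjusted p = 3.1e-10). The gs1_B11 call was lost without parental replicate 1 (adjusted p = 0.087) or gs1_B11 replicate 3 (0.063). Relative to its neighbours on chromosome 19, Got1 was lower in 5 clones, with log2 values of -0.31 (gs1B8), -0.14 (gs2_B4), -0.39 (gs2_F6), -0.15 (gs1_B4) and -0.19 (gs1_C8), and its value in gs1_B11 was -0.08 (adjusted p = 0.25). The ratio of Got1 to Got2 stayed between 0.204 and 0.265 in all 27 libraries.

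The promoters of both aminotransferase genes follow because these genes were lower in every clone. The Got1 sequence is chr19:43524606-43524855 and the Got2 sequence is chr8:95888548-95888651, both on the minus strand of GRCm38.p6 from RefSeq, and the second is limited to the bases outside the annotated gene. The Got1 stretch holds 1 AAGGTCA, in capitals, a string present in 2 of the 38 member windows (Got1 and Acadm; 250 bases before the start) and in 4.05% of 27025 genes.
Got1: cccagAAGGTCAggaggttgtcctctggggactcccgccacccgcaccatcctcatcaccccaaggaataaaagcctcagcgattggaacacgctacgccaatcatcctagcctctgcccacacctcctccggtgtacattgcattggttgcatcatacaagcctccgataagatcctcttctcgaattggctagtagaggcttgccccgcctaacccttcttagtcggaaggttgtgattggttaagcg
Got2: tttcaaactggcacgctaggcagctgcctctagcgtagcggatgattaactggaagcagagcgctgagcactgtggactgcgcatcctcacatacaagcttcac

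Glud1, the matrix glutamate dehydrogenase that feeds 2-oxoglutarate to the cycle, went the other way in the Fis1 clones. It was at 342, 334 and 318 CPM in parental cells, at 370, 375 and 390 CPM in gs1_B11 and at 386, 402 and 406 CPM in gs2_F6, without overlap (log2 0.19 and 0.25, adjusted p = 0.00029 and 3e-05). It fell in gs1_B4 to 261, 269 and 281 CPM (log2 -0.32 ± 0.04, adjusted p = 7.9e-07). In the other Mff clone, gs1_C8, it was called higher (365, 358 and 365 CPM), but relative to neighbours it was lower there (-0.09, adjusted p = 0.039). Like Pdhb and Sucla2 it lies on chromosome 14, and its neighbours stood at 0.21 in gs1_B11, 0.08 in gs2_F6 and -0.16 in gs1_B4. Relative to them it was not called in gs1_B11 (-0.02, adjusted p = 0.73), higher in gs2_F6 (0.17) and lower in gs1_B4 (-0.16).

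Cpt1a, the outer membrane carnitine acyltransferase that sets the rate of long-chain fatty acid entry, had the widest spread of the β-oxidation genes. Parental libraries held 21.8, 17.8 and 14.5 CPM, the most scattered parental values, relative to their mean, of the 40 tested genes. Both Drp1 clones were lower, at 12.3, 12.6 and 10.3 CPM in gs1B8 (log2 -0.63 ± 0.11, adjusted p = 0.00024) and 11.4, 11.3 and 12 CPM in gs2_B4 (-0.65 ± 0.11, adjusted p = 6.5e-05). The Mff clones moved in opposite directions, at 12.2, 11.9 and 12.8 CPM in gs1_B4 (log2 -0.58 ± 0.11) and 29.2, 28.9 and 26.4 CPM in gs1_C8 (0.64 ± 0.11). The Fis1 clones overlapped the parental range, with log2 values of 0.15 and -0.19. Neighbours on chromosome 19 were at -0.58 in gs2_B4, where Cpt1a was not told from them (-0.07, adjusted p = 0.65), and at -0.36 in gs1_C8, where Cpt1a stood 1 log2 unit above them (value 1, adjusted p = 3e-07). Cpt2, the inner membrane acyltransferase, was called in no clone (log2 -0.16 to 0.08).

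**Figure D5:**
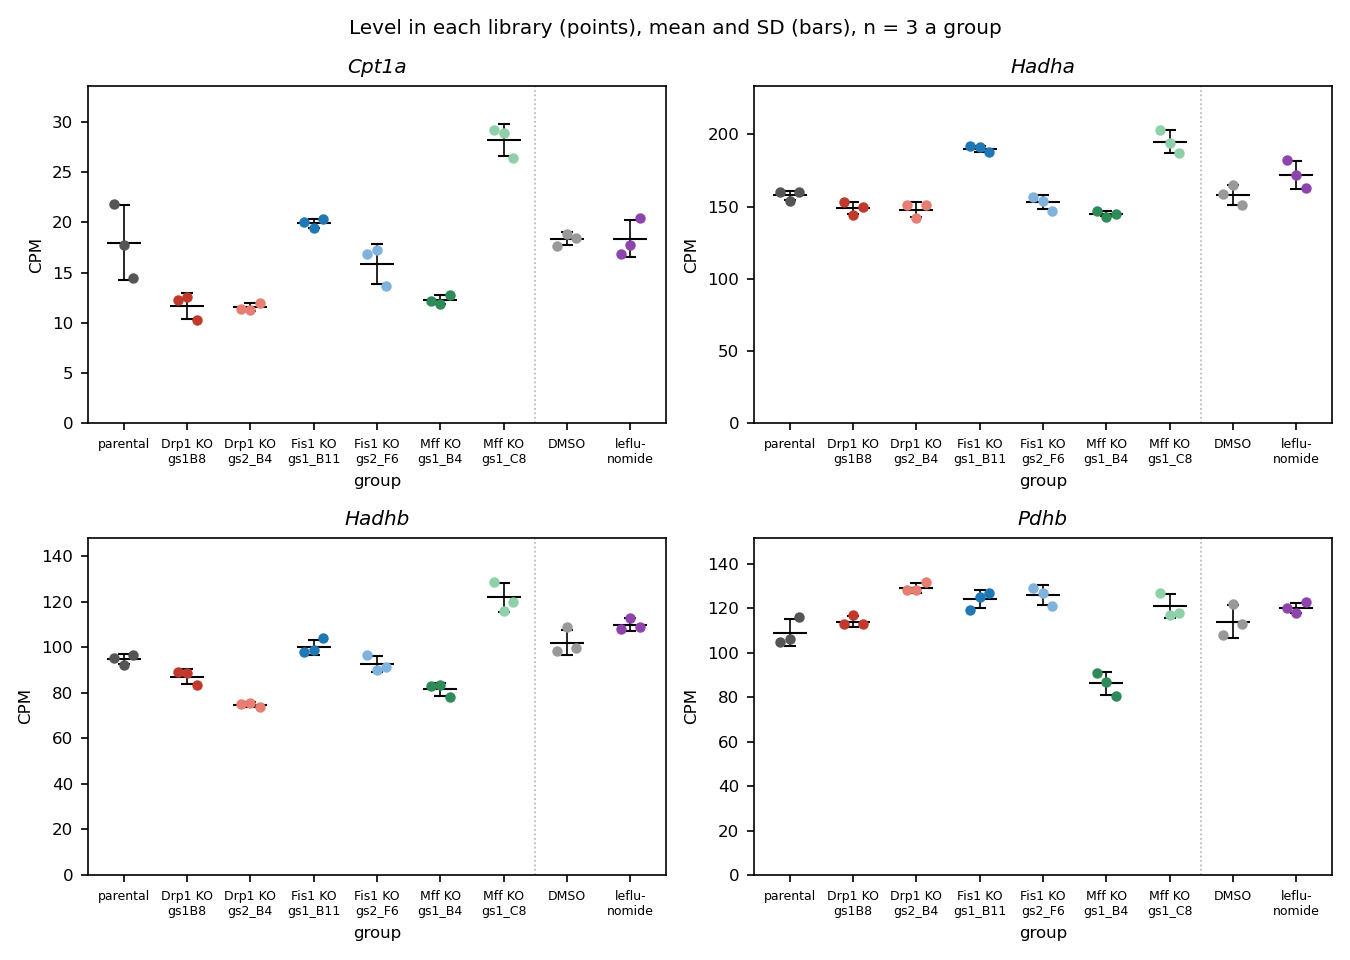
Level of Cpt1a, Hadha, Hadhb and Pdhb in CPM (vertical axes, from 0) in each library (points) by group, with mean and SD of 3 libraries as bars; a dotted line parts the 2 arms. In all 4 panels Mff clone gs1_B4 lies below and Mff clone gs1_C8 above the mean of the parental libraries.

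The acyl-CoA dehydrogenases open each round of β-oxidation and differ in the chain length they take. Medium-chain Acadm fell in 4 clones: from 55.6, 52.9 and 52.9 CPM in parental cells to 38.9, 37.7 and 41.7 CPM in gs2_B4 and 41.4, 40.5 and 43.6 CPM in gs1_B11. In the Mff clones it was at 44.8, 43.5 and 41 CPM (gs1_B4) and 41.1, 39.8 and 38.9 CPM (gs1_C8), 78.5% and 73.7% of parental (log2 -0.35 and -0.44, adjusted p = 2.3e-06 and 1.3e-07). The other clones, gs1B8 and gs2_F6, overlapped the parental range. In gs1_C8 neighbours on chromosome 3 stood at -0.4 and Acadm was not different from them (-0.04, adjusted p = 0.55), whereas in gs1_B4 they stood at 0.04. Long-chain Acadl moved the opposite way, from 122, 116 and 121 CPM to 161, 164 and 171 CPM in gs1_B4 and 184, 173 and 172 CPM in gs1_C8 (log2 0.44 ± 0.05 and 0.55 ± 0.05, adjusted p = 3.4e-07 and 1.8e-08). It rose in gs2_B4 (0.28) and gs1_B11 (0.21) too, and in both Mff clones it stayed called against its neighbours (0.21 and 0.49). Thus Acadm was lower and Acadl higher in the same 4 clones, those other than gs1B8 and gs2_F6. Very-long-chain Acadvl rose in both Drp1 clones from 42.3, 45.4 and 44.1 CPM to 46.9, 47.8 and 49.9 CPM in gs1B8 and 47.4, 51.4 and 48.1 CPM in gs2_B4 (log2 0.12 and 0.14, adjusted p = 0.043 and 0.011), calls that ended without parental replicate 1 or 3, gs1B8 replicate 2 or 3, or gs2_B4 replicate 2 (adjusted p = 0.064 to 0.18). They also ended with no low-count filter (0.19 and 0.054) and relative to neighbours (log2 0.06 and 0.05, adjusted p = 0.42 and 0.43), and in gs1B8 in a fit of clone and parental alone (0.055). Acadvl was also called higher in gs1_B11 (51.9, 55.5 and 51.5 CPM) and gs1_C8 (48.2, 47.8 and 48.9 CPM). In gs2_F6 it was called lower (40.5, 42 and 39.4 CPM). The calls in gs1_B11, gs1_C8 and gs2_F6 held relative to neighbours. Acadvl lies antisense to Dvl2, which had 454 counts on average against 1140 for Acadvl, so its values are uncertain too. Short-chain Acads rose in gs1_C8 (0.58 ± 0.07, adjusted p = 3.9e-07), with neighbours on chromosome 5 at 0.22, and in gs2_F6 (0.22).

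Electrons leave these dehydrogenases through the flavoprotein Etfa-Etfb and its quinone reductase Etfdh. Etfb rose in both Mff clones, from 21.8, 21.1 and 22.2 CPM to 32.2, 27.9 and 24.4 CPM in gs1_B4 and 28.7, 24.3 and 27.7 CPM in gs1_C8 (log2 0.34 ± 0.08 and 0.3 ± 0.08, adjusted p = 0.0017 and 0.0058). Neighbours of Etfb on chromosome 7 stood at -0.02 and 0.02 there. Etfa rose in gs1_B11 and gs1_C8 (0.2 and 0.18) and fell in gs2_F6 (-0.2). Etfdh fell in gs2_B4, gs1_B11 and gs1_B4 (log2 -0.36, -0.3 and -0.3), and it overlaps an antisense gene, 4930579G24Rik, with 272 counts on average against 658.

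The trifunctional protein holds the later steps for long chains in an α subunit (Hadha) and a β subunit (Hadhb). Their genes start back to back on chromosome 5 with 85 bases between them. Their group means over the 9 groups moved together (Pearson r 0.828, 9 points that share libraries), beside a median of 0.091 over all 780 member pairs. Pairs that share a chromosome but do not adjoin had r as high, so the value does not set Hadha and Hadhb apart. These were Acadm with Hadh (0.881), Pdhb with Glud1 (0.879), Pdhb with Sucla2 (0.86) and Pdha1 with Idh3g (0.855). Hadhb fell in both Drp1 clones, from 95.4, 92.4 and 96.6 CPM to 89.2, 89 and 83.5 CPM in gs1B8 and 75.2, 75.7 and 73.7 CPM in gs2_B4 (log2 -0.13 ± 0.04 and -0.36 ± 0.04, adjusted p = 0.029 and 1.3e-06). The gs1B8 call ended without any 1 parental library or gs1B8 replicate 3 (adjusted p = 0.052 to 0.14), with no low-count filter (0.2), in a fit of clone and parental alone (0.061) and relative to neighbours (log2 -0.12, adjusted p = 0.052). Hadha was at 160, 154 and 160 CPM in parental cells and at 151, 142 and 151 CPM in gs2_B4 (log2 -0.11, adjusted p = 0.023), and the ratio of Hadha to Hadhb was 1.65 to 1.67 in parental libraries and 1.88 to 2.05 there. In the Mff clones both genes were lower in gs1_B4 (Hadha -0.15, Hadhb -0.25) and higher in gs1_C8 (0.29 and 0.35), where their neighbours stood at -0.01 and 0.26. In gs1_B11 Hadha rose (0.27) and Hadhb had a log2 value of 0.08 (adjusted p = 0.14). A pseudogene of Hadhb, Hadhb-ps, had 1.9 CPM on average, beside 96.2 for Hadhb.

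The stretch between the 2 genes is shown because both start sites border it: chr5:30155163-30155247 on the plus strand of GRCm38.p6, from RefSeq. It holds 2 GC boxes, in capitals. A GC box was found in 24 of the 38 member windows (63.2%) and in 32.9% of the 27025 genes with a window.
Hadha and Hadhb: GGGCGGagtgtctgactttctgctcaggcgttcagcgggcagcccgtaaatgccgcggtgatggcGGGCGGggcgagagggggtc

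Of the other strings, GCGCATGCG was in 2 of 38 (Acadm and Etfdh; 1.49% of all genes), TGACGTCA in 2 (Mdh2 and Ogdh; 1.62%), CCGGAAGT in 1 (Cpt2; 2.93%) and CACGTG in 2 (Pcx and Pdk2; 6.05%). Windows for Acaa2, Pdp1 and Idh3a were not used here.

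Hadh, the matrix dehydrogenase for shorter chains, had the largest falls of the later steps. From 59.8, 55.8 and 52 CPM in parental cells it went to 35.8, 34.9 and 30.7 CPM in gs1_B4 (log2 -0.75 ± 0.1, adjusted p = 2.3e-06) and 46.5, 44 and 38.5 CPM in gs1_C8 (-0.39 ± 0.1, adjusted p = 0.0023). It was also lower in gs2_B4 (-0.72) and gs1_B11 (-0.8), the same 4 clones in which Acadm fell. Both genes lie on chromosome 3, and neighbours of Hadh stood at -0.19 (gs2_B4), -0.24 (gs1_B11), 0 (gs1_B4) and -0.33 (gs1_C8). Relative to them Hadh stayed lower in the first 3 (-0.53, -0.56 and -0.76) and had a value of -0.05 in gs1_C8 (adjusted p = 0.72). Eci1, an isomerase for unsaturated chains, rose in both Fis1 clones, from 30.1, 30.3 and 35.2 CPM to 38.2, 38.3 and 39.1 CPM in gs1_B11 and 39.2, 38.8 and 33.7 CPM in gs2_F6 (log2 0.28 and 0.22, adjusted p = 0.0049 and 0.034). The gs2_F6 libraries overlapped the parental range, and that call was lost without parental replicate 1 or 2 or gs2_F6 replicate 1 or 2 (adjusted p = 0.12 to 0.13), in a fit of clone and parental alone (0.057) and relative to neighbours (0.15, adjusted p = 0.16). Eci1 was higher in gs2_B4 (0.23) and gs1_B4 (0.34) too. The hydratase Echs1 rose in gs2_B4 and gs1_C8 (0.23 and 0.15) and fell in gs1_B11 (-0.17), and it overlaps the antisense gene Paox. The thiolase Acaa2 fell in gs1B8 and gs1_B4 (-0.27 and -0.25).

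Leflunomide called 2 of the 40 genes: Acadvl was higher, beside 1.84% of all 12603 genes tested, and Pdp1 was lower, beside 0.944%. Acadvl was at 39.9, 43.2 and 40.7 CPM in DMSO and at 58, 56.6 and 48.6 CPM with leflunomide, without overlap (132% of DMSO, log2 0.4 ± 0.08, adjusted p = 0.041). Pdp1 was at 13.5, 12.6 and 14 CPM in DMSO and at 9.57, 10 and 9.56 CPM with leflunomide (72.8% of DMSO, log2 -0.46 ± 0.1, adjusted p = 0.049). Both adjusted p-values lay close to the threshold: without DMSO replicate 3, the library with the high CT010467.1 share, they were 0.12 and 0.14 at log2 values of 0.39 and -0.43. Both calls were also lost without DMSO replicate 1 or 2 or leflunomide replicate 1 or 2, and both held without leflunomide replicate 3 (0.0084 and 0.028). The Pdp1 call was lost as well with no low-count filter (0.051) and with the run of serial numbers as a block (0.077). The median of the neighbours was 0 for both genes. The summed epithelial markers were lower with leflunomide (1400 to 1560 CPM) than in DMSO (1710 to 1800 CPM), and their part in these results was not tested. Leaving out DMSO replicate 3 moved no member's log2 fold change by more than 0.09, and 36 of the 40 kept their sign. Mdh1 (165, 186 and 161 CPM in DMSO; 206, 207 and 200 CPM in leflunomide) and Cpt2 (13.9, 14.2 and 13.4 CPM; 10.6, 10.5 and 11.3 CPM) were not called, at log2 0.26 and -0.35 with adjusted p of 0.099 and 0.09. DESeq2 called Mdh1 (adjusted p = 0.024) beside Acadvl and Pdp1. Pdha1, Cs, Got1 and Got2, lower in most or all clones, had log2 values of -0.04, -0.02, -0.07 and 0.05 with leflunomide (adjusted p = 0.61 to 0.92). Dhodh, the gene of the drug's target enzyme, stood at 17.9 CPM on average in DMSO and 15.1 CPM in leflunomide (log2 -0.24, adjusted p = 0.23). Against parental cells it was lower in all 6 clones (log2 -0.2 to -0.72), as were 2.1% of all genes. Its value relative to neighbours is not given here. Summed over the 41 genes, DMSO libraries held 4440 to 4676 CPM and leflunomide libraries 4669 to 4769 CPM.

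Clones of 1 genotype differed from each other in many of these genes. The test of gs2_B4 against gs1B8 called 21 of 40, beside 41% of all genes, that of gs2_F6 against gs1_B11 called 27, beside 47.6%, and that of gs1_C8 against gs1_B4 called 23, beside 54.7%. Genes called in opposite directions against parental cells by the 2 clones, with a called difference between them, numbered 0 of 40 for Drp1 (2.07% of all genes), 3 for Fis1 (5.29%) and 8 for Mff (8.69%). Hadh (0.84), Idh3g (0.78) and Pdha1 (0.55) were higher in gs2_F6 than in gs1_B11, while Suclg2 (-0.48), Acadvl (-0.4) and Etfa (-0.4) were lower. Between the Drp1 clones, Pcx (-1.58), Hadh (-0.55) and Acadm (-0.46) were lower in gs2_B4. With the clone as the replicate (2 sums per genotype), no member differed between genotypes: 0 of 41 for Drp1 against Fis1, beside 0% of all 15513 genes, 0 of 41 for Drp1 against Mff, beside 0.00645%, and 0 of 41 for Fis1 against Mff, beside 0.00645%. At an unadjusted p below 0.05, edgeR gave 0, 2 (Mpc2 and Etfb) and 3 (Sucla2, Acadl and Etfb) members, and DESeq2 gave 0, 3 and 4, also with none after adjustment. With 2 clones a genotype, that does not show that the genotypes are alike in these genes.

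The wider pathway also held genes called in either direction, and its counts stand beside the shares of all genes given above (higher and lower: 7.94% and 12.1% in both Drp1 clones, 5.94% and 9.02% in both Fis1 clones, 7.37% and 11.3% in both Mff clones). Of 26 further tested genes of the TCA cycle and its entry and exit routes, 4 were higher and 6 lower in both Drp1 clones, 2 higher and none lower in both Fis1 clones, none higher and 3 lower in both Mff clones, and none was called in all 6 in 1 direction. Pdk1, a kinase that switches pyruvate dehydrogenase off, was lower in both Drp1 clones (log2 -1.1 and -0.43), lower in gs1_B11 (-1.82) and gs1_B4 (-1.09) and higher in gs1_C8 (0.72). It was the only one of the 25 tested in the drug arm to be called with leflunomide (40.6 CPM on average in DMSO, 22.9 CPM in leflunomide, log2 -0.83, adjusted p = 0.0069). Ogdhl, a relative of Ogdh at 0.166 CPM on average in parental cells, was higher in both Drp1 clones (0.558 and 1.1 CPM) and lower in both Mff clones (0.0363 and 0.0122 CPM, with 2 of 3 libraries of each at 0). Of 30 further genes of fatty acid activation and oxidation, 2 were higher and 6 lower in both Drp1 clones, none higher and 6 lower in both Fis1 clones, and 4 higher and 7 lower in both Mff clones. Acsl1, which activates long-chain fatty acids to acyl-CoA before Cpt1a takes them, was the only 1 of the 30 lower in all 6 clones, beside 2.1% of all genes. Its log2 values were -0.26 to -0.84, from 20.4 CPM on average in parental cells to between 11.5 and 17.1 CPM. Values relative to neighbours are not given for Acsl1 and the other genes of these wider lists. Acacb, which makes the malonyl-CoA that inhibits Cpt1a, was higher in both Mff clones (0.67 and 3). It was also higher in gs2_B4 (0.83) and lower in gs1B8 (-0.84) and gs1_B11 (-2.43). The peroxisomal dehydrogenase gene Acad11 was higher in both Mff clones (1.05 and 0.48) and both Drp1 clones (0.34 and 0.36). It was lower in gs2_F6 (-0.45). Acsl6 was lower in both Drp1 clones (-0.76 and -3.54) and in gs2_F6 (-2.89). It was higher in both Mff clones (0.99 and 1.46) and in gs1_B11 (0.97). In both Fis1 clones, the lower genes included Mlycd (-1.16 and -1.19), which degrades malonyl-CoA, the carnitine carrier Slc25a20 (-0.43 and -0.42) and the peroxisomal thiolase Acaa1a (-0.42 and -0.38). Acaa1a was also lower in Drp1 clone gs1B8 (-0.31). Of 15 tested regulators of oxidative metabolism, Ppard was higher in both Drp1 clones (0.59 and 0.58). It was also higher in gs1_B11 (0.32) and gs1_B4 (0.39) and lower in gs1_C8 (-0.58). Sirt5 was lower in both Drp1 clones and in gs1_B11 (-0.84). Pprc1, Nrf1 and Gabpa were lower in both Mff clones, and Pprc1 (-0.5) and Gabpa (-0.15) also in gs2_B4. None of the 15 was called in both Fis1 clones or with leflunomide.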

How the data were processed

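Gene-level expected counts were estimated by the authors with RSEM after trimming with Trimmomatic 0.35, against GRCm38 (mm10), per the submitters' processing notes. No source available for this work names the aligner, the annotation or a strand setting. The deposited table of expected counts covers 27 libraries and 55401 genes, with 91.5% of values whole. Column names give the clone, and replicates are numbered in column order; the clone numbers of the labels could not be tied to clone codes.

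Counts were rounded to whole numbers and tested with edgeR 4.0.16 (R 4.3.3): genes kept by filterByExpr, TMM scaling, quasi-likelihood F test, two-sided, Benjamini-Hochberg adjustment over all tested genes, threshold 0.05. The 21 knockout-arm libraries were fitted together, the 6 drug-arm libraries apart, and genotypes were compared on clone sums. CPM used TMM over all 27 libraries (14114 genes), limma 3.58.1 being loaded with edgeR. Exons and positions are from GENCODE annotation of GRCm38, and promoter sequences from RefSeq (38 of 41 genes matched). The tests were checked on simulated data. No 2 of the 27 libraries (351 pairs) were identical. Alternatives were DESeq2 1.42.0, its size factors in edgeR, no low-count filter, a block for the run of serial numbers, a fit of clone and parental alone, leaving out each library, and 2 offsets by chromosome position added after seeing the data. The members and the other gene lists were chosen with earlier results of these data known. Per-library values were given for members called in both clones of a genotype, in all 6 clones or with leflunomide. Other genes named are the fission genes, Dhodh, and from the wider lists those called in all 6 clones or the 4 largest per genotype and drug; Mpc1, Pcx, Mdh1, Cpt2, Sirt5, Pprc1, Nrf1 and Gabpa were given values or names beyond this rule after their values were seen.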

Additional observations from a re-analysis of the deposited data

Results flagged for a closer look

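In 11 instances the 2 clones of 1 genotype were called in opposite directions against parental cells, and the test of one clone against the other also passed: 0 of 40 genes in the Drp1 pair (2.07% of all genes), 3 in the Fis1 pair (5.29%) and 8 in the Mff pair (8.69%). In the Fis1 pair, Pdhx was 0.53 ± 0.05 higher on the log2 scale in gs2_F6 than in gs1_B11 (adjusted p = 9.7e-08), while Acadvl (-0.4 ± 0.04, adjusted p = 3.3e-07) and Etfa (-0.4 ± 0.04, adjusted p = 9.6e-08) were lower. In the Mff pair, 8 genes were higher in gs1_C8 than in gs1_B4. Cpt1a differed by 1.21 ± 0.11 (adjusted p = 8.8e-09), Hadhb by 0.6 ± 0.04 (5.8e-10) and Hadha by 0.44 ± 0.04 (4.8e-09). Pdhb and Ogdh differed by 0.5 each, Glud1 by 0.44, Sucla2 by 0.42 and Mdh2 by 0.2 (adjusted p = 5.5e-09 to 5.8e-05). Of these, Pdhb, Sucla2 and Glud1 lie on chromosome 14, whose median was -0.22 in gs1_B4 and 0.16 in gs1_C8, and Hadha, Hadhb and Mdh2 on chromosome 5, at -0.01 and 0.24. Ogdh and Cpt1a lie on chromosomes 11 and 19, whose medians were 0.01 and -0.21 in gs1_B4 and 0.04 and -0.31 in gs1_C8. Groups of 3 libraries were too small for a check of single outlying libraries.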

How the results depend on the processing

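Across 280 log2 fold changes (40 genes in 7 comparisons), no called value changed sign under DESeq2, its size factors, no low-count filter, the serial-run block, a fit of clone and parental alone (240 values) or leaving out a library. Among these, calls were lost most often without the filter (22 of 280), with clone and parental alone (17) and when 1 library was left out (108 of 1680). Without the filter, members called fell from 14 to 9 in gs1B8 and from 11 to 7 in both Drp1 clones. Leaving out 1 library gave 9 to 13 in gs1B8 and 7 to 10 in both Drp1 clones, each lowest without parental replicate 1, and 0 to 3 with leflunomide, with 0 without any DMSO library or leflunomide replicate 1 or 2. Deviations of libraries from their group's mean correlated at -0.116 to 0.356 within 1 serial run (mean 0.101, 31 of 63 pairs over 0.1). Between different runs the mean was -0.05 (5 of 126 over 0.1). Deviations cancel within a group, which ties the second mean to the first, so it is no separate comparison. Libraries of 1 run thus deviated together in many pairs but not in every one, and the serial numbers were not taken to pair samples. The block left 1 member, Acadvl, called with leflunomide (Pdp1 adjusted p = 0.077). With the neighbourhood offset 7 members were called in gs1B8, 17 in gs1_B11, 4 in both Drp1, 2 in both Fis1 and 0 in all 6 clones; with the whole-chromosome offset 6 in both Drp1 and 1 (Pdha1) in all 6. DESeq2 called 14, 216 and 372 genes between genotypes, where edgeR called 0, 1 and 1.

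Without DMSO replicate 3, 36 of the 40 leflunomide log2 values kept their sign. Values that were called with or without the alternative setting and changed sign did so under the 2 offsets. With the neighbourhood offset they were, in gs1B8, Dlat -0.01 and Sucla2 -0.02; in gs2_B4, Idh3g 0.04, Sucla2 -0.02, Got2 0.07 and Glud1 -0.37; in gs1_B11, Pdhb -0.05, Idh3a -0.07, Idh3b 0.16, Idh3g 0.05 and Glud1 -0.02; in gs1_B4, Fh1 -0.09; and in gs1_C8, Pdhb -0.15, Mdh2 -0.15 and Glud1 -0.09. With the whole-chromosome offset they were, in gs1B8, Glud1 -0.11; in gs2_B4, Pdhb -0.03, Sucla2 -0.04, Got2 0.03 and Glud1 -0.21; in gs1_B11, Pdhb -0.06, Idh3b 0.2, Idh3g 0.04 and Glud1 -0.05; in gs2_F6, Idh3a 0.15 and Etfa 0.01; in gs1_B4, Fh1 -0.09; and in gs1_C8, Pdhb -0.02, Sucla2 -0.01, Mdh2 -0.13 and Glud1 -0.04. By construction these remove a shift that a member shares with its chromosome. Pdk2, at under 0.4 CPM, was too low to test.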
